A study of Mus musculus with 12 samples.

Results

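Nuclear genes of the mitochondrial respiratory chain were followed across 12 arrays of thymocytes from reaggregate thymic organ culture (RTOC), in which thymocytes and thymic stroma are dissociated and rejoined. A gene was taken when a probe set that is not a control names it alone and the symbol starts with Nduf, Uqcr, Cox4 to Cox8 or Atp5, or is Sdha, Sdhb, Sdhc or Sdhd. That gave 71 genes, read by 98 probe sets, of 8251 genes named by a probe set with a single symbol. The brightest probe set stood for each gene, chosen by its mean over all 12 arrays. They comprise 29 subunits of complex I, 2 of its assembly factors, 4 subunits of complex II, 7 of complex III, 15 of complex IV and 14 of complex V.

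The respiratory chain lies in the inner mitochondrial membrane. Complexes I and II pass electrons from NADH and succinate to ubiquinone, complex III passes them on to cytochrome c, and complex IV reduces oxygen. Protons pumped on the way drive complex V, the ATP synthase. Thymocytes draw on this chain for ATP, and its activity is known to shift as T cells are activated and divide.

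OT1 arrays held thymocytes with the OT1 receptor, a transgenic receptor known to see an ovalbumin peptide, and no added ligand is named for them. HY_low and HY_high arrays held RTOC with the HY receptor, a transgenic receptor for a male antigen encoded by Smcy, given Smcy at 1e-07 M and 1e-05 M. All were taken at day 6, and each group had 4 arrays, numbered 1 to 4 in the titles. OT1 therefore differs from the HY groups in receptor and ligand together. The titles also carry different letters for HY_low and HY_high whose meaning is not given, so dose cannot be told apart from what the letters may mark. The labels name no strain, animal age, promoter driving the receptors or sorting step, and do not say that replicates were separate cultures, so p-values measure only the spread between these arrays.

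The deposited intensities had a median of 3.33 to 3.97 per array, and 3.0% to 22.5% of probe sets sat at the lowest value of 1. Thymocyte markers were present: 7 of 11 measured exceeded an intensity of 8 on all arrays. Their summed intensity was 1787 to 2967 in OT1, 1625 to 3441 in HY_low and 737 to 1346 in HY_high, with Cd8b1, a CD8 co-receptor chain, at geometric means of 693, 644 and 4.52 and Thy1 at 541, 555 and 234. The CD3 chains of the receptor complex did not share that order: Cd3g had 184, 273 and 231, Cd3d 87.3, 101 and 98.3, and Cd3e 41.5, 57.2 and 48.0. Markers of thymic epithelium were dim, with 8 of 9 below 8 on all arrays, and summed to 15.0 to 34.1 over all groups. Macrophage and dendritic markers summed to 23.4 to 32.7 in OT1, 26.8 to 62.9 in HY_low and 28.8 to 41.5 in HY_high, and fibroblast and mesenchyme markers to 52.3 to 68.2, 54.6 to 98.1 and 50.3 to 85.8. The macrophage-associated genes Apoe (1.27, 5.61 and 1.40) and Lyz2 (1.16, 4.57 and 1.97) had their highest means in HY_low. The matrix genes Fn1 (1.53, 5.72 and 5.27) and Col3a1 (2.14, 4.62 and 6.81) were higher in both HY groups. None passed the threshold in limma, and their lists were mixed. Of 8 tested macrophage and dendritic markers, 6 were higher in HY_low than OT1, and 4 were lower in HY_high than HY_low. Csf1r (4.72, 6.28 and 3.73) was highest in HY_low, while Cd14 (7.97, 5.70 and 7.98) was lowest there. Of 7 tested fibroblast and mesenchyme markers, 4 were higher in HY_low and 5 in HY_high than OT1, while Col1a2 (28.7, 26.5 and 17.9) was lower in both. The part of these marker levels in the results on respiratory genes was not tested. In bulk RNA, fewer cells of a type and less RNA per cell cannot be told apart.

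Most respiratory chain genes gave clear signal. A geometric mean above 8 was reached by 54 of 71 (76.1%), against 32.0% of all 12422 probe sets that are not controls. The shares are not alike in kind. Each member stands as the brightest probe set of its gene, which raises its share, while the background holds dimmer probe sets of the same genes too. All 7 complex III genes passed that level, as did 23 of 29 in complex I, 3 of 4 in complex II, 10 of 15 in complex IV and 10 of 14 in complex V. The filter on dim probe sets, a mean above an intensity of 1.76, kept 66 genes for testing. Ndufa12 (1.69), Ndufc2 (1.71), Atp5j2 (1.73), Cox7a1 (1.75) and Cox8a (1.75) fell just under it, and Ndufs4 (2.17) and Cox5a (2.65) lay just above.

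The sequences below are the 250 bases before the start site of 5 genes, printed because these genes carry the patterns described next or hold the motifs searched. They are RefSeq sequences on GRCm38.p6, 5′ to 3′ on the gene's strand, with matched letters in capitals. Ndufb7 lies at chr8:83566508-83566757 (plus strand) and Uqcrh at chr4:116075071-116075320 (minus strand); both genes were set apart on arrays numbered 1, in opposite directions. Ndufb8 at chr19:44555443-44555692 (minus strand) and Uqcr11 at chr10:80406822-80407071 (minus strand) were both low on arrays numbered 2. Cox6a1 at chr5:115348959-115349208 (minus strand) is the brightest complex IV probe set and holds both forms of the NRF1 letters.
Ndufb7: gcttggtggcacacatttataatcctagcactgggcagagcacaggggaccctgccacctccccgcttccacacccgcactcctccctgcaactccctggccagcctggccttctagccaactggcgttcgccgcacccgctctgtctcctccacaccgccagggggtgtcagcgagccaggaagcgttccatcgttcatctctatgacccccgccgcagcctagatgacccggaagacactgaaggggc
Uqcrh: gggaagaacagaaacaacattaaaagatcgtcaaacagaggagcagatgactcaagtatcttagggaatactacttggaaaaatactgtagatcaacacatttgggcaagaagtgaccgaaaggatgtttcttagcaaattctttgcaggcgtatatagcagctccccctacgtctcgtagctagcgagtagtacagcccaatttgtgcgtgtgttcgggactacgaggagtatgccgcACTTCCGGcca
Ndufb8: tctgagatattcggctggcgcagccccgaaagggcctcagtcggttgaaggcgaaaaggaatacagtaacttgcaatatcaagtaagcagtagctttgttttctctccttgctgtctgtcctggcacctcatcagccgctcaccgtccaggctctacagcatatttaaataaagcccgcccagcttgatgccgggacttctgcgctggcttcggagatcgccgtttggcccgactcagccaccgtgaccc
Uqcr11: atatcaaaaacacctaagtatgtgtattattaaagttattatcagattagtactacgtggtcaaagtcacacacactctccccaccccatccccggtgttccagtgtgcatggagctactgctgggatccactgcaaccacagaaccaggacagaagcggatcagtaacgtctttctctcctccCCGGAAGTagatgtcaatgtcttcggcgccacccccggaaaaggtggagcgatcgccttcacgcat
Cox6a1: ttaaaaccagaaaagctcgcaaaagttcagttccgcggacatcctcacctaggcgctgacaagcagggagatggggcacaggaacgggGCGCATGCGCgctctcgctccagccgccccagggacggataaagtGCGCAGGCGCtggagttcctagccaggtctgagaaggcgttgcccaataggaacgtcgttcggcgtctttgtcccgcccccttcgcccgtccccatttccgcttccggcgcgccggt

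NRF1 and the ETS factor GABP are known regulators of nuclear respiratory genes. Windows of 300 bases, from 250 before to 50 after the start, were held for 58 of the 71 genes, as 63 windows among 32851 in all. The NRF1 palindrome, GCGCA followed by TGCGC, which reads the same on both strands, lay in 5 of 63 member windows (7.94%), against 0.971% of all windows. With a free base between GCGCA and GCGC, on either strand, it lay in 13 (20.6%) against 4.60%, and these include the palindrome. Overlapping windows of Ndufa5 share a site, and by gene it was 12 of 58 (20.7%) against 5.19% of 27025 genes. The background was not limited to genes on the array. The ETS letters CCGGAAGT, or ACTTCCGG on the other strand, lay in 4 (6.35%) against 3.89%. Uqcrh and Uqcr11 held the ETS letters, while Ndufb7 and Ndufb8 held neither motif. These matches describe letters, not binding.

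No respiratory chain gene passed the test between any groups. In limma with Benjamini-Hochberg adjustment over 8695 tested probe sets, 0 of 66 genes passed in HY_high against HY_low, where 0.0230% of probe sets did. None of the 66 passed in HY_low against OT1 (background 0.0230%) or in HY_high against OT1 (background 0.173%). With the title number as a block the members' counts were again 0, against 0.345%, 0.0920% and 1.36% of probe sets. The lowest adjusted p of any member in limma was then 0.121, for Uqcrq in HY_high against HY_low. The median standard error of a member's log2 difference was 0.48 without the block and 0.26 with it, so differences of that order could not be resolved. The comparisons share arrays, OT1 and each HY group entering 2 of the 3, and their values are given side by side only.

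At an unadjusted p under 0.05 in limma, 2 of 66 members were counted in HY_high against HY_low (background 2.96%), 3 in HY_low against OT1 (2.65%) and 0 in HY_high against OT1 (4.08%). With the block these counts were 11 (16.7%, background 11.1%), 7 (10.6%, background 8.37%) and 7 (10.6%, background 11.7%). Groups did not overlap for 1 member, Cox4i1, in the first comparison (1.52%, background 2.02%), for 2 in the second (3.03%, background 1.63%) and for 3 in the third (4.55%, background 2.53%). These shares lay near the background of all probe sets.

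**Figure D1:**
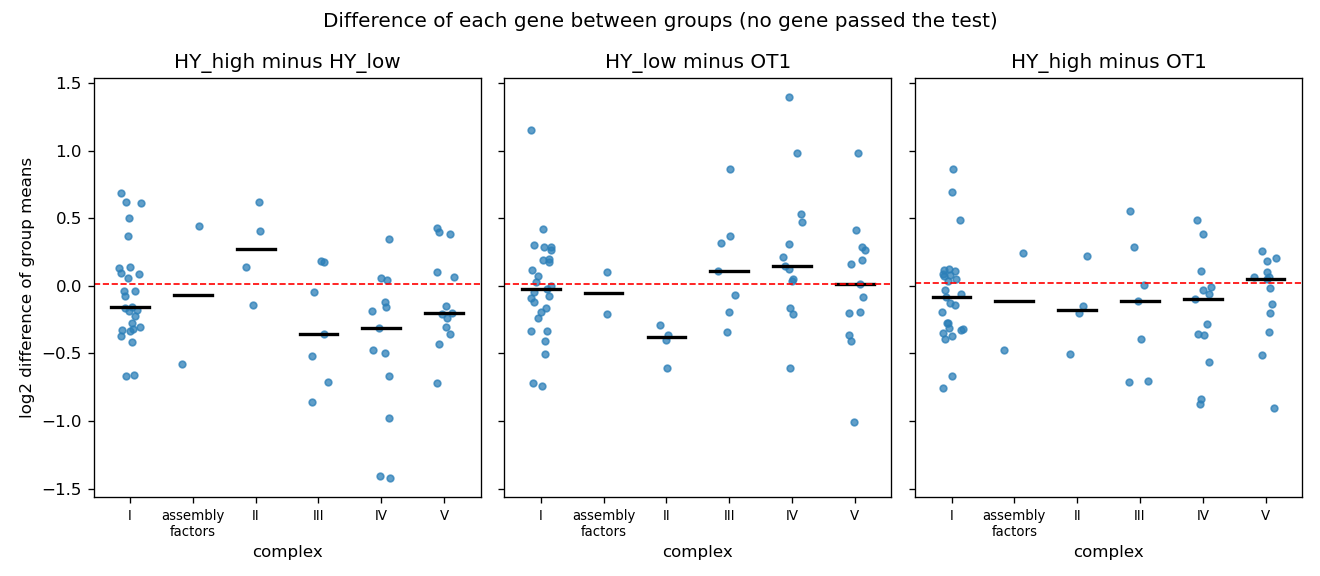
Difference of group means for each tested gene on the log2 scale (vertical axis) by complex (horizontal axis), in 3 comparisons. Each point is a gene, black bars are medians of a complex and the red dashed line is the median of all tested probe sets; HY_high minus HY_low spans −1.42 to 0.69, with medians below the dashed line for complexes I, III, IV and V and above it for complex II.

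Between the doses, the median member difference, HY_high minus HY_low, was −0.16, against 0.01 over all tested probe sets. Within title numbers 1 to 4 it was −0.07, −0.01, −0.11 and −0.27, and without the arrays numbered 4 it was −0.048. Lower means in HY_high were found for 42 of 66 genes (63.6%, background 48.7%). Values were lower within all 4 numbers for 12 genes (18.2%, background 9.76%) and higher within all 4 for 5 (7.58%, background 9.81%). The 12 were Atp5l, Cox4i1, Cox6b2, Cox6c, Ndufa3, Ndufa7, Ndufa8, Ndufb5, Ndufb8, Ndufv2, Uqcr10 and Uqcrq. The 5 were Atp5a1, Ndufaf1, Ndufs1, Ndufs3 and Sdhd. By complex the median was −0.16 for complex I, 0.27 for II, −0.36 for III, −0.31 for IV and −0.20 for V.

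In complex I, Ndufs3, a core subunit, read 51.5, 28.4, 72.6 and 63.2 on HY_low arrays 1 to 4, 62.2, 68.2, 122 and 71.8 on HY_high arrays, and 57.8, 66.8, 93.2 and 75.3 on OT1 arrays. HY_high exceeded HY_low within every number, but the ranges of the groups overlapped. The log2 difference was 0.62 ± 0.41 (SE, limma), and 0.34 without HY_low array 2. Ndufs1, the largest iron-sulfur subunit of complex I, read 9.74, 12.9, 25.7 and 25.4 in HY_low, 13.3, 23.1, 40.2 and 36.3 in HY_high, and 17.1, 27.5, 39.0 and 35.2 in OT1. HY_low was the lowest group within every number, with overlapping ranges. Its difference was 0.61 ± 0.48 for HY_high minus HY_low and −0.74 ± 0.48 for HY_low minus OT1, and 0.35 and −0.48 without HY_low array 1.

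In complex II, Sdhd, a membrane anchor, read 29.0, 58.3, 26.9 and 58.9 in HY_low, 32.7, 78.9, 52.6 and 109 in HY_high, and 47.4, 92.2, 33.1 and 55.9 in OT1. HY_high was above HY_low within each number, and all 3 groups overlapped. The difference between doses was 0.62 ± 0.48 (SE, limma), and 0.35 without HY_high array 4. All 4 complex II genes were lower in HY_low than in OT1 (background 49.0%), with a median difference of −0.38, and none passed the test.

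In complex III, Uqcrq, a small subunit next to cytochrome b, read 520, 288, 219 and 518 in OT1, 922, 707, 454 and 633 in HY_low, and 724, 360, 231 and 287 in HY_high. HY_low was the highest group within each number, although its lowest array lay inside the ranges of both other groups. The geometric means were 361, 658 and 363. HY_high minus HY_low was −0.86 ± 0.45 and HY_low minus OT1 was 0.87 ± 0.45, with adjusted p = 0.121 and 0.201 in limma with the block, each in the same direction in 4 of 4 numbers. Uqcr10, another small subunit, had a dose difference of −0.71 ± 0.46, lower within 4 of 4 numbers.

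In complex IV, Cox4i1, the widely expressed isoform of subunit 4, read 15.3, 19.1, 15.7 and 25.7 in OT1, 18.4, 18.4, 15.9 and 32.6 in HY_low, and 9.67, 11, 7.20 and 15.3 in HY_high. The HY_high arrays lay below all HY_low arrays and below all OT1 arrays, in both cases by a narrow margin. The highest HY_high value was 15.29, against lowest values of 15.93 in HY_low and 15.35 in OT1. The differences were −0.98 ± 0.41 against HY_low and −0.83 ± 0.41 against OT1, with adjusted p = 0.155 and 0.160 in limma with the block. A dimmer probe set of the gene (geometric mean 4.75) gave 0.13 and 0.31 for the same differences, so the probe sets disagreed in direction. The brighter one has a suffix (_f_at) that marks probes shared with similar sequences.

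Cox6b2, an isoform best known from testis, read 4.69, 14.4, 13.1 and 4.41 in HY_low, 1.89, 1.91, 5.28 and 3.98 in HY_high, and 2.19, 1.44, 5.73 and 4.54 in OT1. Arrays 2 and 3 of HY_low were the high ones, and all other arrays were under 8. The differences were −1.42 ± 0.59 between the doses and 1.39 ± 0.59 for HY_low minus OT1, and another probe set gave 0.26 and 0.26. With values under 8 set to 8 they shrank to −0.39 and 0.39. The means of Apoe, Lyz2 and Csf1r were likewise highest in HY_low, as for Uqcrq, and that of Adgre1 by a narrow margin (1.423 against 1.418 in HY_high). Those of the other listed macrophage and dendritic markers, Cd14, C1qb, C1qa, Cd68, Itgax and Itgam, were not. The part of these markers in Cox6b2 or Uqcrq was not tested.

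Against OT1, the median member difference of HY_low was 0.02 (0.16, −0.07, −0.08 and −0.05 within numbers 1 to 4), with 0.01 over all probe sets. It was −0.12 without HY_low array 4, so its sign rested on single arrays. For HY_high minus OT1 the median was −0.09 (0.17, −0.12, −0.09 and −0.34), with 0.02 over all probe sets, and ran from −0.19 without OT1 array 1 to −0.0091 without OT1 array 4. Of the genes, 40 of 66 were lower (60.6%, background 48.6%). Complex IV genes were higher in HY_low than OT1 in 10 of 13 cases (background 51.0%), with a median of 0.14.

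Atp5k, subunit e of the ATP synthase, had 6.92, 6.28, 5.53 and 10.4 in OT1, 2.11, 4.77, 3.12 and 4.86 in HY_low, and 1.88, 5.24, 5.01 and 4.11 in HY_high. All OT1 arrays exceeded all HY arrays, at intensities that were mostly under 8. The differences from OT1 were −1.01 ± 0.48 for HY_low and −0.91 ± 0.48 for HY_high, neither past the threshold in limma, and both −0.094 with values under 8 set to 8. Ndufa10, an accessory subunit of complex I, had 12.7, 11.9, 8.75 and 10.0 in OT1, 4.96, 7.48, 6.01 and 8.10 in HY_low, and 7.44, 4.10, 6.23 and 8.5 in HY_high. It too showed no overlap of OT1 with either HY group, by a narrow margin for HY_high (8.5 against 8.75 in OT1). The differences were −0.72 ± 0.41 and −0.76 ± 0.41, or −0.42 and −0.40 with values under 8 set to 8.

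The remaining genes that ranked highest by p against OT1 were dim accessory subunits of complex I. Ndufs4 had geometric means of 1.49 in OT1, 3.30 in HY_low and 2.09 in HY_high, with differences from OT1 of 1.15 ± 0.50 and 0.49 ± 0.50, or 0.63 without the arrays numbered 2 and 0.30 without OT1 array 2. Ndufa1 had 2.72, 3.07 and 4.94, and HY_high minus OT1 was 0.86 ± 0.56, or 0.33 without the arrays numbered 2. Ndufv3 gave 0.69 ± 0.66 for HY_high minus OT1, which became −0.042 without OT1 array 2, where the gene read 1.02.

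The isoform pairs of complex IV are known to differ between tissues. Cox6a1, the widely expressed form, read 422, 484, 625 and 864 in OT1, 457, 610, 866 and 1078 in HY_low, and 393 to 554 in HY_high. Its muscle counterpart Cox6a2 read 4.18 to 32.2 in OT1, 5.55 to 61.8 in HY_low and 2.89 to 14.5 in HY_high. Both had overlapping groups. Cox6b1 ranged from 2.30 to 10.7 over the 12 arrays, Cox7a2 from 48.4 to 183 and Cox7a2l, a factor of supercomplexes, from 93.3 to 273. The muscle form Cox8b spanned 4.54 to 29.0 and the testis form Cox8c 10.3 to 47.2. Another probe set of each gene lay near the lowest value, with geometric means of 1.71 for Cox8b and 1.01 for Cox8c. The probe sets thus disagreed in level. Cox8a had a geometric mean of 1.75. Of 10 striated muscle markers, 7 were below 8 on all arrays and the list summed to 20.6 to 67.1, and 6 of 6 brown fat markers were below 8 on all arrays. Whether RNA of other cells added to these isoforms was not tested.

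The members varied mainly with the title number. A limma F test of the number, chosen after the values were seen, called 40 of 66 genes (60.6%), against 38.7% of all tested probe sets. With probe sets limited to those above the 50th percentile of brightness the shares were 64.1% and 52.1%, and without the arrays numbered 1 they were 37.9% (25 genes) and 22.5%. All 7 genes of complex III were called, with 19 of 27 in complex I, 2 of 4 in complex II, 4 of 13 in complex IV, 8 of 13 in complex V and 0 of the 2 assembly factors. Among the 40, the ratio of the highest to the lowest number mean ran from 1.76 to 29.0, with a median of 2.80. Over all 66 genes the median was 2.36, the same as over all tested probe sets (2.36), and the median ratio between groups was 1.33 against 1.44. Noise alone is expected to widen a ratio over 4 number means more than one over 3 group means, which average more arrays each.

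**Figure D2:**
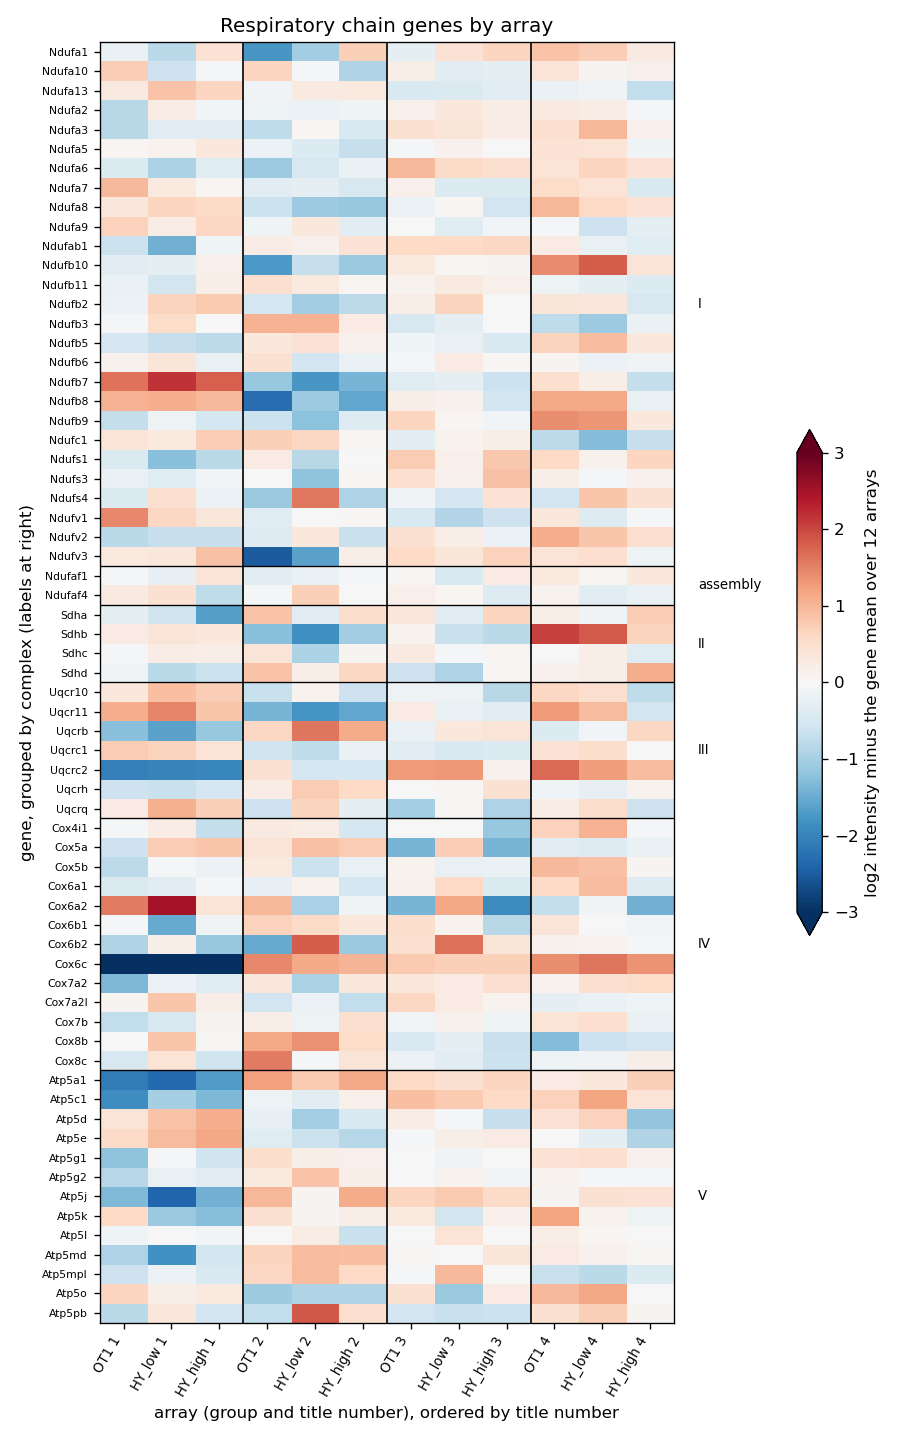
Log2 intensity minus each gene's mean (colour) for 66 genes (rows, by complex) on 12 arrays (columns, ordered by title number, black lines between numbers). Blocks of 3 columns share their colours: Cox6c, Uqcrc2 and Atp5a1 are blue on the number 1 arrays where Ndufb7 is red, and Ndufb8 and Uqcr11 are blue on number 2; the colour scale ends at −3 and 3, which Cox6c passes on number 1.

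Of a gene's sum of squares over the 12 arrays, a median of 67.0% lay between numbers and 8.21% between groups. For all tested probe sets these were 52.8% and 10.7%, and for those above the 50th percentile of brightness 60.6% and 9.85%. More lay between numbers than groups for 56 of 66 genes and for 7301 of 8695 probe sets. With 4 numbers and 3 groups, noise alone is expected to put the larger share between numbers, so equal shares do not mark the level without effect. The median share between numbers was 85.0% in complex III, 72.9% in complex I, 71.5% in complex V, 59.9% in complex II and 45.9% in complex IV. The assembly factors Ndufaf1 and Ndufaf4 went the other way, with a median of 22.6% between numbers and 45.8% between groups. Ndufaf1 had 9.0 to 12.6 in HY_low and 12 to 15.9 in HY_high, a difference of 0.45 ± 0.38, and Ndufaf4 4.98 to 10.5 and 3.71 to 6.25, a difference of −0.58 ± 0.41.

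**Figure D3:**
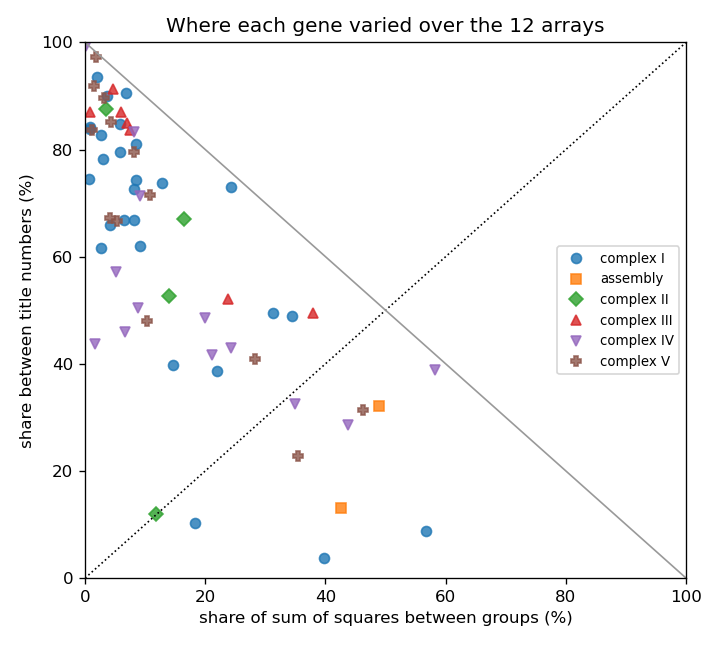
Share of each gene's sum of squares over the 12 arrays that lay between groups (horizontal axis, %) and between title numbers (vertical axis, %). Points are genes, shaped by complex; 56 of 66 lie above the dotted line of equal shares, and the grey line marks the limit where the shares add up to the whole.

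Cox6c, a small nuclear subunit of complex IV, showed the widest ratio. It read 30.1, 1078, 689 and 1050 on OT1 arrays 1 to 4, 47.9, 872, 651 and 1211 in HY_low, and 36.9, 810, 647 and 1017 in HY_high. The number 1 array was the low one in every group, 29.0-fold below the mean of number 4 (limma F test, adjusted p = 1.24e-09). Its group means were 391, 426 and 375. Its probe set also carries the _f_at suffix, and the gene's other probe sets, at geometric means of 1.52 and 1.30, were too dim to compare. The same suffix marks the probe sets used for Atp5d, Atp5g2, Atp5md, Cox6a1, Ndufa3, Ndufb2, Ndufb5, Uqcrb and Uqcrc2.

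The ATP synthase subunit alpha, Atp5a1, read 160, 1621, 1045 and 815 in OT1, 136, 1192, 941 and 855 in HY_low, and 214, 1510, 1073 and 1133 in HY_high. Number 1 was lowest and number 2 highest in each group, an 8.56-fold range (adjusted p = 6.84e-08 in limma). Uqcrc2, a core protein of complex III, read 64.3, 366, 637 and 865 in OT1, 66.4, 183, 652 and 630 in HY_low, and 68.7, 184, 288 and 507 in HY_high, again lowest on number 1 (9.81-fold, adjusted p = 6.61e-07 in limma). A title number whose 3 arrays all lay above or all below the other 9 was found for 23 of 66 genes (34.8%), against 30.4% of probe sets. On number 1, 11 genes had their 3 number 1 arrays below the other 9 (16.7%, background 9.13%). Beside Atp5a1, Uqcrc2 and Cox6c they were Atp5c1, Atp5g2, Atp5j, Atp5md, Ndufb5, Ndufv2, Uqcrb and Uqcrh. A second probe set of Atp5c1, the gamma subunit, was also lowest on number 1, at 6.24 against 19.0 to 40.5.

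Ndufb7, an accessory subunit in the membrane arm of complex I, did the opposite. It read 615, 91.3, 155 and 282 in OT1, 892, 59.6, 163 and 228 in HY_low, and 693, 75.7, 127 and 122 in HY_high. Number 1 was highest and number 2 lowest in each group, a 9.74-fold range (adjusted p = 1.32e-06 in limma). The other gene with all 3 number 1 arrays above the other 9 was Atp5e, the epsilon subunit, with means of 102 on number 1 and 35.8 to 59.9 on the rest, so 2 of 66 genes lay above there (3.03%, background 6.47%). A second probe set of Ndufb2, another accessory subunit, also read highest on number 1, at 295 against 68.2 to 103 on the others.

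On number 2, 8 genes lay below the other 9 arrays (12.1%, background 6.43%): Ndufa5, Ndufa8, Ndufb10, Ndufb2, Ndufb7, Ndufb8, Sdhb and Uqcr11. Ndufb8, an accessory subunit of complex I, read 85.5, 8.58, 47.8 and 91.7 in OT1, 88.7, 19.4, 45.1 and 91.1 in HY_low, and 81.5, 14.0, 28.0 and 35.6 in HY_high. Its mean on number 2 was 6.42-fold under that on number 1 (adjusted p = 5.67e-05 in limma). Uqcr11, a small complex III subunit, read 80.3, 14.4, 44.8 and 91.9 in OT1, 104, 11.1, 33.2 and 73.4 in HY_low, and 67.8, 12.8, 29.8 and 25.5 in HY_high, a 6.52-fold range. Its order over the numbers matched that of Ndufb8, with number 1 highest and number 2 lowest by their means.

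Sdhb, the iron-sulfur subunit of complex II, read 76.9, 27.3, 70.2 and 269 in OT1, 84.6, 18.1, 40.6 and 231 in HY_low, and 80.7, 31.4, 37.1 and 104 in HY_high. It was lowest on number 2 and highest on number 4 in every group, 7.45-fold apart (adjusted p = 2.79e-05 in limma). Other genes with all 3 number 4 arrays above the rest were Ndufb10 and Ndufv2 (3 in all, 4.55%, background 3.17%). Atp5a1, Atp5g2 and Atp5md were above the rest on number 2 (4.55%, background 4.16%). Atp5md, a small subunit and the brightest of complex V, had means of 428, 1621, 996 and 1000 for numbers 1 to 4.

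**Figure D4:**
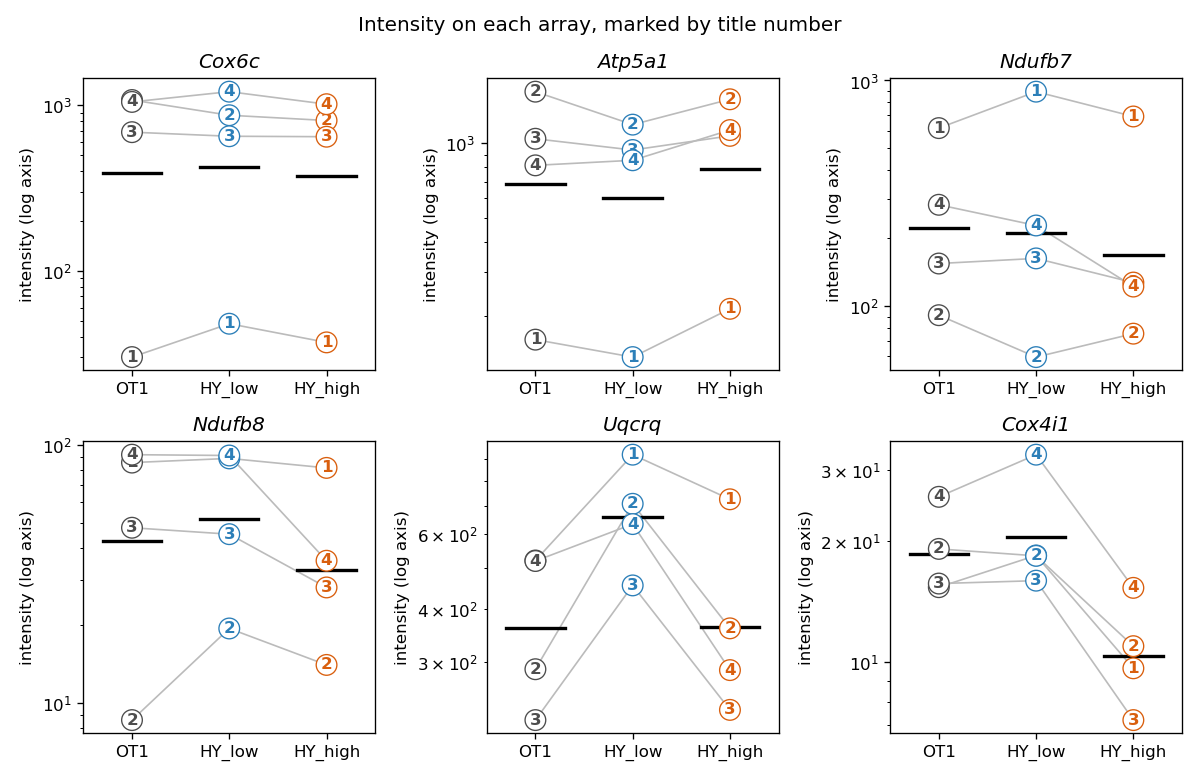
Intensity (logarithmic vertical axis) of 6 genes in each group, with each array marked by its title number, grey lines joining equal numbers and black bars for geometric means of 4 arrays. Cox6c and Atp5a1 are lowest and Ndufb7 highest on number 1 in all 3 groups, Ndufb8 is lowest on number 2, Uqcrq is highest in HY_low within each number and Cox4i1 lowest in HY_high.

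Number and array measures moved together in part. The log2 ratio of 3′ to 5′ control probe sets of Gapdh, a measure of RNA integrity and labelling, was 4.57 to 4.87 on number 1, 5.60 to 6.26 on number 2, 4.69 to 5.48 on number 3 and 2.95 to 3.27 on number 4. For actin the ratios were 2.59 to 3.60, 2.02 to 2.99, 2.74 to 3.39 and 2.15 to 2.54. The 3′ sets thus exceeded the 5′ sets on every array, by at least 2.95 for Gapdh and 2.02 for actin on the log2 scale. The share of probe sets at the lowest value was 8.5% to 8.80% on number 1, 3.0% to 19.0% on number 2, 21.3% to 22.5% on number 3 and 20.8% to 22.4% on number 4. Within number 2 the groups differed, with 19.0% on the OT1 array, 5.18% on the HY_low array and 3.0% on the HY_high array. Mean Gapdh ratios of the groups lay closer, at 4.62 in OT1, 4.8 in HY_low and 4.55 in HY_high. The part of these measures in the members' values was not tested, and the labels do not say what the numbers mark.

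The per-array median of the members ran from 47.0 to 68.2 in OT1, 36.4 to 61.2 in HY_low and 35.6 to 59.5 in HY_high, so the groups overlapped. Genes outside the set whose log2 pattern was most like this median, of 6296 compared over 12 arrays, were Sf3b5 (Pearson r = 0.925), Aimp2 (0.920) and Wdr46 (0.915). Without the 2 arrays farthest in the member median, r was 0.906, 0.898 and 0.890. The arrays share title numbers and so are not independent points, and the values are descriptions.

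Other mitochondrial gene lists gave 0 calls in limma without the block in any comparison, and at an unadjusted p under 0.05 they gave 1, Sdhaf1 in HY_high against OT1. The pyruvate dehydrogenase and citric acid cycle list, which feeds the chain with NADH, had 15 tested genes, with 0 that rose or fell in any of the 3 comparisons. Of these, 14 were lower in HY_low than OT1 (background 49.0%), with a median of −0.31, and 11 in HY_high than OT1, with a median of −0.28. Fh1, fumarase, had a difference of −0.47 ± 0.37 and Sucla2, a subunit of succinyl-CoA ligase, −0.64 ± 0.50 for HY_low minus OT1. Among 60 mitochondrial ribosomal protein genes, 0 rose or fell, and 47 were lower in HY_high than OT1 (background 48.6%), with a median of −0.19. Between the doses 38 of the 60 were lower in HY_high (background 48.7%), with a median of −0.15, beside 42 of 66 and −0.16 for the respiratory chain genes.

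Among 11 assembly and insertion factors tested, 0 passed without the block. With it, Sdhaf1, which matures the iron-sulfur subunit of complex II, rose in HY_high against OT1, by 1.26 ± 0.24 (SE with the block) from a geometric mean of 58.6 to 141, in 4 of 4 numbers (adjusted p = 0.694 in limma without the block and 0.0103 with it). Among 13 carrier and mobile electron genes, Gpd2, the mitochondrial glycerol-3-phosphate dehydrogenase, rose in HY_high against OT1 with the block by 1.55 ± 0.35, from 39.1 to 115, in 4 of 4 numbers (adjusted p = 1.0 without and 0.0323 with the block in limma). With the block, 1.36% of all tested probe sets passed in HY_high against OT1. Sdhaf1 and Gpd2 were the only calls with it in these lists, which also held 15 citric acid cycle and 60 ribosomal protein genes tested. As a share of all genes tested in the lists, these calls lay near that background. Of 11 regulators of mitochondrial gene expression and 5 mitochondrial antioxidant genes, 0 passed in either fit. Sod2, the matrix superoxide dismutase, had −0.92 ± 0.46 for HY_low minus OT1. None of the 13 listed mitochondrially encoded genes was measured here under its symbol.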

How the data were processed

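Total RNA of 12 RTOC thymocyte samples was measured on Affymetrix mouse arrays, 1 array per sample, grouped by title. The deposited values are linear intensities per probe set; the scaling and background steps of the authors are not given in the sources used here. Log2 of the deposited intensity was taken with no further normalization (lowest value 1). Of 12488 probe sets, 66 controls were left out; of the other 12422, 10833 had 1 platform symbol, 396 several and 1193 none. All 71 member symbols were found in RefSeq (GRCm38.p6). Symbols come from the platform annotation, and 7 probe sets with several symbols that start like those of members were left out.

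Group means were fitted over all 12 arrays in limma 3.58.1 (R 4.3.3) with an intensity trend (9 residual degrees of freedom), after a filter on the mean log2 value (30th percentile, 8695 tested), two-sided, with Benjamini-Hochberg adjustment and a threshold of 0.05. Differences are ± SE. Levels are geometric means. Scripts were tested on simulated data. The alternatives were a replicate block on the title number (6 residual degrees of freedom), no filter and a 50th percentile filter, quantile and median scaling, a floor at 8, no trend, array weights, all probe sets of a gene and arrays left out. The tests of title number, and leaving out all arrays of 1 number, were added after the data were seen.

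The title numbers pair the arrays: after subtraction of group means, arrays of the same number correlated at 0.341 to 0.593 over the tested probe sets in all 12 pairs, and arrays of different numbers at −0.40 to 0.163. Subtracting group means makes correlations between different numbers negative on average when those of the same number are positive, so this contrast is partly built in. The pairing comes from the data, as the labels do not state it.

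Members, context lists and markers were chosen with earlier results of these data known. Named genes were, in each comparison, the 3 with the smallest p in each direction, the 2 brightest of each complex, complex IV isoforms, and the 3 genes most like the member median; genes named for title number, and those set apart on a number, were chosen after their values were seen. Context lists name those with the smallest p.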

Additional observations from a re-analysis of the deposited data

Results flagged for a closer look

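Among 90 sets of 4 arrays (29 named genes and the member median, in 3 groups), 7 held an array far from the other 3, by a gap past the critical value of Dixon's test. Chance gives about 1 in 20 such sets when arrays and sets are independent and normally spread. Here the sets of a gene are not independent, as arrays of the same title number deviate together across groups. Some genes were also named by their values, so 7 of 90 cannot be weighed against that rate. Cox6c read 30.1 on OT1 array 1 against 689 to 1078 on the other OT1 arrays, and 36.9 on HY_high array 1 against 647 to 1017. Atp5a1 read 136 on HY_low array 1 against 855 to 1192. Cox7a2, the widely expressed COX7A isoform, read 48.4 on OT1 array 1 against 134 to 157. Ndufv3, a complex I accessory subunit, read 1.02 on OT1 array 2 against 7.14 to 8.79, and 1.90 on HY_low array 2 against 7.29 to 8.15. Cox8c, the testis isoform of COX8, read 47.2 on OT1 array 2 against 11.6 to 14.6. The 4 low values of Cox6c, Atp5a1 and Cox7a2 lay on arrays numbered 1 and the 3 of Ndufv3 and Cox8c on arrays numbered 2; what the numbers mark is not given.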

How the results depend on the processing

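No respiratory chain gene passed in any comparison under any alternative run (0 of 66 in the replicate block too), and of the 18 values of named genes in the comparisons 0 passed, the lowest adjusted p in limma being 0.121. Ndufv3 in HY_high against OT1 (0.69) turned to −0.042 without OT1 array 2, where it read 1.02. It ran from there to 1.12 over the arrays and numbers left out. No other named value reversed while the brightest probe set stood for its gene. With another probe set of the gene, Cox4i1 in HY_high reversed to 0.13 against HY_low and 0.31 against OT1. Cox6b2 in HY_high against HY_low likewise reversed, to 0.26. With the brightest probe set, the values of Cox4i1 and Uqcrq stayed within 1.5 times of those reported. Those of the other named genes did not. Atp5k shrank to −0.094, Cox6b2 to −0.39 and 0.39, and Ndufa10 to −0.42 and −0.40 with the floor at 8. Arrays or numbers left out took Ndufs3 to 0.34, Sdhd to 0.35, Ndufs1 to 0.35 and −0.48, Ndufa1 to 0.33 and Ndufs4 to 0.63 and 0.30. The counts over all probe sets moved more. HY_high against HY_low (2 called) gave 30 with the replicate block, 0 without a filter, 1 with the 50th percentile filter, 1 with median scaling, 4 with the floor at 8 and 7 with array weights; leaving out single arrays gave 1 to 4, and all arrays of a title number 1 to 2. HY_low against OT1 (2) gave 8 with the block and 4 with weights. HY_high against OT1 (15) gave 118 with the block, 9 without a filter, 8 with the floor and 64 with weights, and 6 to 14 without single arrays or 3 to 9 without a title number. The member median for HY_high minus HY_low was −0.20 to −0.055 without single arrays and −0.23 to −0.048 without a title number, −0.048 being without number 4. For HY_low minus OT1 it was −0.12 to 0.12 without single arrays. For HY_high minus OT1 it was −0.19 to −0.0091 without single arrays. The test of title number called 25 members (40) and 1960 probe sets (3365) without number 1, and 35 to 42 members and 2725 to 3209 probe sets without single arrays. The cause was not tested, except that fewer arrays were fitted. Signal limits the dim genes: 17 of 71 members had a geometric mean of 8 or less.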
